A study of Mus musculus with 12 samples.

Results

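The peaks described here are the 24616 intervals on chromosomes 1 to 19 in the single Nfib peak list of the mouse line KP1. They make up 98.8% of the 24905 peaks of that list and were taken by chromosome alone, with no filter on width or position. The list represents 2 Nfib pulldown libraries set against 2 input libraries of KP1, out of 12 libraries from 3 lines. KP1 is a tumor-derived small cell lung cancer line with the genotype Trp53-/-;Rb1-/- and is labelled Nfib high; both pulldown and input carry this genotype. It was grown as floating spheres in RPMI with 10% FBS, and chromatin was pulled down with a Sigma antibody against Nfib. KP1 is 1 line, so nothing measured here can be told apart from what is peculiar to that line. The list holds positions only, with no score and no value per library, so the values below have no replicate check. Positions are in mm9, counted from 1.

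Nfib (nuclear factor I B) belongs to the nuclear factor I group of DNA-binding transcription factors, which bind a palindromic element as dimers and can also bind a single arm of it. In the developing lung it takes part in the maturation of the epithelium and mesenchyme, and in mouse small cell lung cancer its gene is a recurrent target of amplification. Transcription factors of this kind bind mostly at promoters and enhancers. Enhancers often lie in groups near the genes they serve, so the spacing of peaks is a basic property of a binding map.

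Peaks were sparse and unevenly spread. They covered 6.75 Mb, which was 0.281% of the 2402 Mb between the first and the last peak of each autosome. The mean density was 10.2 peaks per Mb. Density ran from 6.15 peaks per Mb on chromosome 14 (exact 95% Poisson interval 5.71 to 6.62) to 14.9 on chromosome 11 (14.2 to 15.6). Intervals here and below count each peak as an independent event and include no error other than that of counting. Chromosome 4, which carries the Nfib gene, was the second densest autosome with 14.1 peaks per Mb (13.5 to 14.7), and its interval overlapped that of chromosome 11. Below this pair lay chromosomes 9, 2, 17 and 5, between 11.8 and 11.5, whose intervals overlapped one another. Chromosome 3, with 6.76 (6.36 to 7.18), and chromosome 14 stood at the bottom, apart from chromosome 1 above them at 8.57 (8.16 to 8.99). The other 10 autosomes lay between 8.77 and 10.6.

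**Figure D1:**
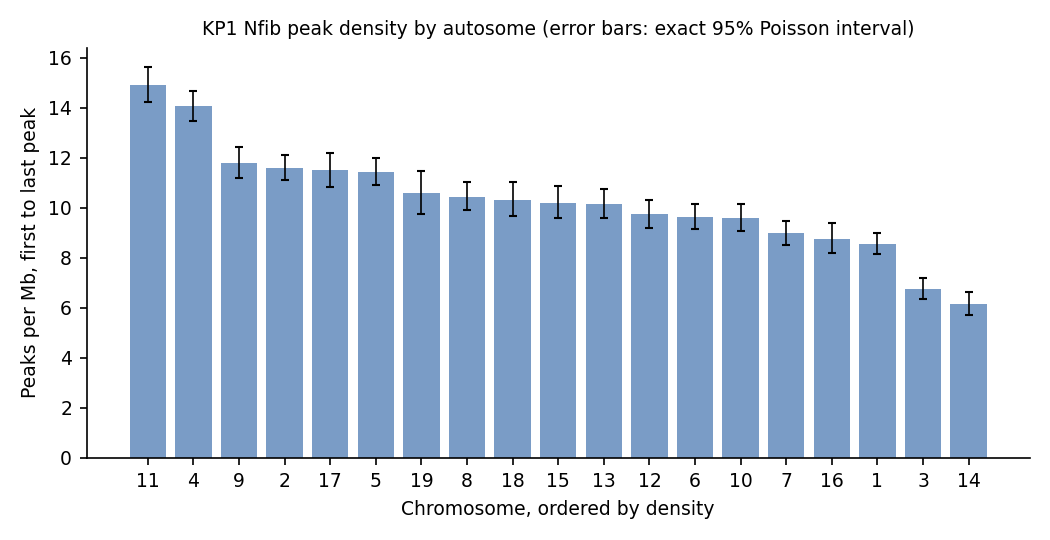
Peaks per Mb between the first and the last peak of each autosome, in order of density; error bars are exact 95% Poisson intervals. Chromosomes 11 and 4 stand at 14.9 and 14.1, and chromosomes 3 and 14 at 6.76 and 6.15.

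Distances between neighbouring peaks ran from 200 bases to 8.18 Mb. Over 24597 neighbouring pairs, the median distance between midpoints was 33.5 kb (exact 95% interval of the median 32.6 to 34.5), with quartiles of 8.03 and 97.3 kb. The mean was 97.6 kb, which is 2.91 times the median, and the SD was 228 kb. The fullest class was that of 10 to 100 kb, which held 11764 distances (47.8%). A further 5746 (23.4%) lay between 100 kb and 1 Mb and made up 60.4% of the summed length. Only 252 distances (1.02%) exceeded 1 Mb, yet they held 18% of that length. Another peak lay within 100 kb of 90.6% of peaks (90.2 to 91.0), and 34 peaks had none within 1 Mb. With a mean distance of 97.6 kb, a high share within 100 kb is in part set by density alone. It was not compared with random placement.

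**Figure D2:**
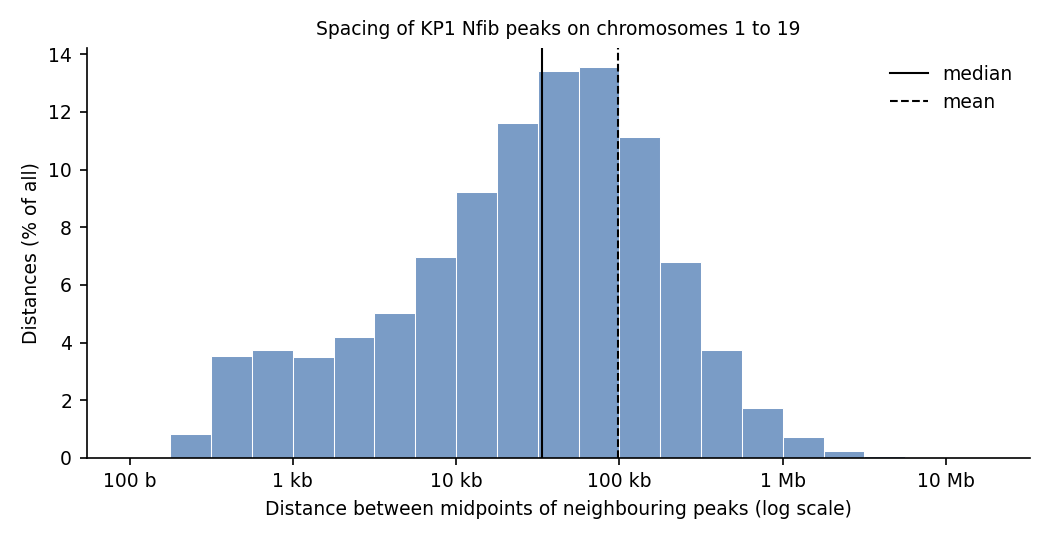
Distances between the midpoints of neighbouring KP1 peaks, as a percentage of all 24597 distances in bins of equal width on a log scale. The fullest bins lie on either side of 56.2 kb, with 13.4% and 13.6% of distances, and a shoulder of 3.50% to 3.76% per bin runs from 0.316 to 1.78 kb; the median is at 33.5 kb and the mean at 97.6 kb.

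Close neighbours were frequent. A second peak lay within 10 kb of 11219 peaks, 45.6% of the list (45 to 46.2). Within 1 kb this was true of 3786 peaks, 15.4% (14.9 to 15.8). On a fine scale, the number of distances per 100 bases was highest at 300 to 400 bases, with 370, and was 346 at 500 to 600 bases. It then thinned to 145 at 900 to 1000 bases and 94 at 1900 to 2000 bases. The class of 200 to 300 bases held 164. No peak was narrower than 150 bases, so the low count in that class is in part set by the widths. At this scale most peaks, 20830 (84.6%), had no other peak within 1 kb. Those that did were mostly in pairs, with no further peak within 1 kb. Only 8.13% of distances were up to 1 kb, so the small size of these groups is in part set by that low share. It was not compared with random placement. Of 1786 groups of peaks joined by distances of up to 1 kb, 1603 (89.8%) were pairs, 161 held 3 peaks and 22 held more. The 2000 distances of up to 1 kb had a median gap of 232.5 bases between the facing edges of their peaks and a median length of 828 bases from outer edge to outer edge. Both peaks were under 500 bases wide in 1709 of them, 85.5% (83.8 to 87.0). No peaks overlapped, and the smallest gap was 49 bases. In 402 cases the gap was under 100 bases. Whether such pairs are 2 binding sites or 1 site reported in 2 pieces cannot be told apart from positions alone.

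The share of peaks with a neighbour within 10 kb differed between autosomes and did not simply follow density. It was highest on chromosome 4, at 58.4% (56.3 to 60.5), followed by chromosome 8 at 51.0% (48.3 to 53.8) and chromosome 11 at 50% (47.6 to 52.4). It was lowest on chromosome 3, at 35.0% (32.2 to 38.0). Chromosome 11 thus had a lower share of close neighbours than chromosome 4, and the intervals of these shares did not overlap. Its density was not lower, at 14.9 against 14.1 peaks per Mb, with overlapping intervals. The median distance was 18.2 kb on chromosome 4, against 25.6 to 54.4 kb on the other 18 autosomes. The ratio of mean to median distance, which is larger where close and far neighbours are mixed, was 3.90 on chromosome 4 and between 2.28 and 3.19 elsewhere. No test was made of these differences, since the autosomes come from the same libraries.

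Peaks were joined into chains wherever neighbouring midpoints lay at most 10 kb apart. Most peaks, 13397 (54.4%), stayed single, and 5932 (24.1%) formed pairs. The remaining 5287 peaks, 21.5% of the list (21.0 to 22.0), lay in 1418 chains of at least 3. Such a chain had a median length of 8.55 kb (quartiles 4.63 and 12.6 kb), of which a median of 12.3% was covered by peaks. Together these chains spanned 13.4 Mb, or 0.560% of the autosomal stretch that holds the peaks. Chains of 3 numbered 896, chains of 4 numbered 284 and chains of 5 numbered 137. Another 101 chains held 6 peaks or more and lay on 17 autosomes. Of all peaks on chromosome 4, 35.7% (33.6 to 37.7) were in chains of at least 3. On the other autosomes the share ran from 12.4% on chromosome 14 to 26.6% on chromosome 11.

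Of the chains, 11 held 10 peaks or more. The longest by number of peaks was unlike all others of these 11. It lay at the very start of the mapped part of chromosome 9, from 3000036 to 3038281, and held 39 peaks of a median width of 716 bases. Peaks covered 85.4% of its 38.2 kb, and no gap between them exceeded 431 bases. In the other 10 chains, peaks covered 8.17% to 17.3% of the chain. Repeats and mappability were not analysed here, and their part in this block was not tested. Leaving the block out moved the share of peaks in chains of at least 3 from 21.5% to 21.4%.

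The second chain lay on chromosome 4 from 122613640 to 122700496. It held 27 peaks over 86.9 kb, among them 9 peaks of at least 500 bases and the widest peak of the chromosome, at 2138 bases. Chromosome 4 carried a pair of further, smaller chains among the 11. One ran from 119915379 to 119960780, with 13 peaks of a median width of 543 bases, and the other from 82140631 to 82166137, with 12 peaks of a median width of 272.5 bases. Chains of 14 peaks lay on chromosome 5 from 125614168 to 125659789 and on chromosome 11 from 98784565 to 98840940. They covered 45.6 and 56.4 kb. Chromosome 6 held 12 peaks from 99917420 to 99949997, none of them as wide as 500 bases. Chains of 11 lay on chromosome 2 from 156895079 to 156911227 and on chromosome 15 from 85483828 to 85520981. The first of these packed its peaks into 16.1 kb, with a median width of 234 bases. Chains of 10 lay on chromosome 2 from 118355211 to 118377723 and on chromosome 11 from 87948507 to 87973193. The 11 chains therefore lay on 7 autosomes, and 3 of them on chromosome 4. No genes are named for these chains, because the gene table used belongs to another genome build.

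Windows of 1 Mb gave the same picture at a larger scale. The 2416 windows between the first and last peaks held a median of 8 peaks, with quartiles of 3 and 15. The variance of the count was 8.99 times its mean, where placement at random with 1 uniform rate would give 1. The densest 10% of the windows held 30.2% of the peaks and the sparsest 50% held 15.4%. There were 188 windows without a peak, 7.78% (6.74 to 8.92). On single autosomes the ratio of variance to mean was 20.3 on chromosome 4 and ran from 5.29 to 9.49 on the other 18, so that every autosome was uneven. The 5 densest windows all lay on chromosome 4, with 103 peaks from 119 to 120 Mb, 73 from 122 to 123 Mb, 65 from 118 to 119 Mb, 63 from 82 to 83 Mb and 59 from 137 to 138 Mb. A further 2 of the 10 densest lay there, with 54 peaks each from 134 to 135 Mb and from 140 to 141 Mb. The others lay on chromosome 6 from 100 to 101 Mb, with 56 peaks, on chromosome 5 from 125 to 126 Mb, with 53, and on chromosome 2 from 167 to 168 Mb, with 51. The last of these places was shared at 51 peaks by this last window, a window of chromosome 4 and chromosome 11 from 117 to 118 Mb. Chains made up different parts of such windows: 51.8% of the 56 peaks on chromosome 6 were in chains of at least 3, against 72.8% of the 103 peaks on chromosome 4 from 119 to 120 Mb. Copy number in KP1 was not analysed here, and its part in the number and width of peaks on chromosome 4 was not tested.

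Dense and sparse windows each lay side by side. Counts in windows 1 Mb apart had a Pearson correlation of 0.55 over 2397 pairs of windows from the same libraries, and a Spearman correlation of 0.57. The Pearson correlation was 0.40 at 2 Mb, 0.22 at 5 Mb, 0.16 at 10 Mb and 0.06 at 40 Mb. Without chromosome 4 it was 0.54 at 1 Mb and 0.12 at 10 Mb. These are descriptions, since neighbouring windows are not independent.

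The longest run of dense windows, each with at least 15 peaks, lay on chromosome 2 from 151 to 175 Mb. It held 646 peaks in 24 Mb, or 26.9 per Mb. The next was on chromosome 4 from 124 to 142 Mb, with 713 peaks and 39.6 per Mb. Runs of 14, 11 and 10 Mb followed on chromosome 5 from 112 to 126 Mb, with 28.6 peaks per Mb, chromosome 9 from 56 to 67 Mb, with 24.8, and chromosome 8 from 120 to 130 Mb, with 28.5. There were 21 such runs of at least 5 Mb. Dense windows were 26.4% of all windows and held 59.4% of the peaks.

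Sparse windows, with at most 3 peaks, formed 35 runs of at least 5 Mb. The longest lay on chromosome 4 from 16 to 32 Mb and held 20 peaks. Chromosome 4 therefore carried both the longest sparse run and the second longest dense run. Chromosomes 14, from 87 to 99 Mb, and 15, from 13 to 25 Mb, each had a sparse run of 12 Mb, with 12 and 15 peaks. In all, sparse windows were 29.3% of the windows and held 4.21% of the peaks.

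The widest stretches without any peak were found on several autosomes. The longest was on chromosome 7, where 8.18 Mb separated a peak ending at 38627986 from the next one starting at 46804932. The second was on chromosome 14, with 6.65 Mb between 111800385 and 118450386. The third lay on chromosome 1, with 4.37 Mb between 45894873 and 50263644. Chromosome 7 held 2 more of the 10 longest, of 4.34 and 4.31 Mb, after positions 20525511 and 7251312. The other 5 were between 3.76 and 4.05 Mb long and lay on chromosomes 1, 3, 5, 8 and 15. Distances over 1 Mb were found on all 19 autosomes, from 4 on chromosome 18 to 24 on chromosome 3. The first peak of chromosome 14 started at 8582989, whereas that of every other autosome started between 3000036 and 3792279. Unsequenced and repetitive parts of mm9 were not marked here, so a stretch without peaks need not be a stretch without binding.

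Density was higher toward the high-coordinate end, which in the mouse is the end away from the centromere. With each autosome cut into 10 equal parts from its first to its last peak, density was 7.56 peaks per Mb in the first part, 9.14 in the fifth and 13.9 in the last. Without chromosome 4 these values were 7.50, 9.39 and 14. With each autosome cut into 3 equal parts, the distal part held 10617 peaks, 43.1% of all, and the proximal part 6392, or 26%. The distal part was the fullest on 10 autosomes, the middle part on 6 and the proximal part on 3. The lean was strongest on chromosomes 4 and 5, where 59.6% and 58.6% of peaks lay in the distal part. Chromosome 14 went the other way, with 13.5% of its peaks in the distal part and 43.7% in the proximal one. On chromosomes 16 and 17 the proximal part held 49.1% and 45.8%. The autosomes thus differed among themselves in where their peaks lay.

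**Figure D3:**
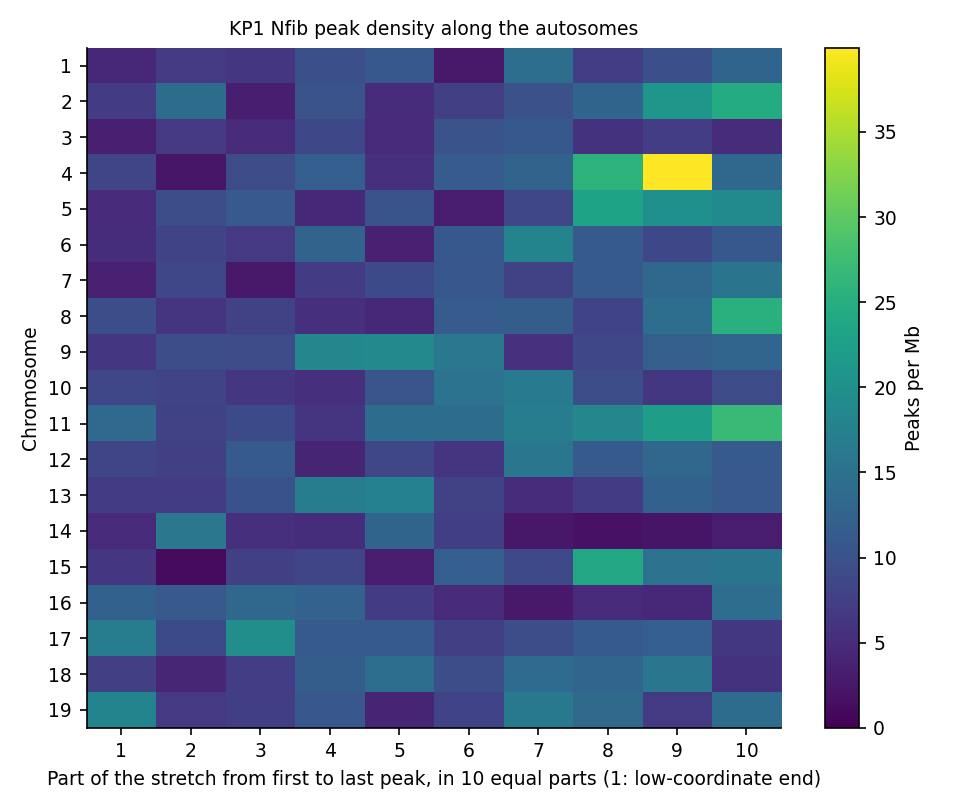
Peaks per Mb in 10 equal parts of the stretch from first to last peak (columns, part 1 at the low-coordinate end) of each autosome (rows). The densest part is part 9 of chromosome 4, at 39.9 peaks per Mb, followed by part 10 of chromosome 11, at 27; the sparsest is part 2 of chromosome 15, at 1.10.

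Gene-rich autosomes carried more peaks per Mb than gene-poor ones. The number of protein-coding genes on each autosome, 20665 in all, came from RefSeq for GRCm38.p6 and was used without positions. The 6 autosomes with the most genes per Mb (2, 7, 9, 11, 17 and 19) had 11.5 peaks per Mb. The 6 with the fewest (1, 3, 12, 13, 16 and 18) had 8.85. The ratio was 1.30 (exact 95% binomial interval 1.26 to 1.35, which treats peaks as independent), and the values of single autosomes overlapped, from 8.98 to 14.9 in the first group and from 6.76 to 10.3 in the second. Per 100 genes, the gene-rich group had 98.8 peaks and the gene-poor group 139. The groups were chosen by genes per Mb, 11.7 in the first and 6.37 in the second. Genes are also the denominator here, so this order is in part fixed by the choice of groups. Across the 19 autosomes, peaks per Mb and genes per Mb had a Pearson correlation of 0.50 and a Spearman correlation of 0.59. The points share the same libraries and the same span as denominator, so this is a description. Genes along each autosome were not analysed here, because positions of the 2 builds must not be mixed.

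Chromosome 7 stood out from this relation. It had the most genes per Mb, 13.6, but 14 autosomes exceeded its peak density of 8.98, and it was lowest in peaks per 100 genes, at 66.01. Without it the Pearson correlation was 0.66. Chromosome 11 had nearly the same number of genes per Mb, 13.5, and 14.9 peaks per Mb. Of the 2030 genes on chromosome 7, 417 (20.5%) were olfactory or vomeronasal receptor genes, which encode the odour and pheromone receptors of sensory neurons and lie in large arrays. With these genes left out on every autosome, chromosome 7 still had the fewest peaks per 100 genes, at 83.1, followed by chromosome 14 at 87.7. The most were on chromosomes 18, at 178, and 12, at 168. The Pearson correlation was then 0.59 over all 19 autosomes. Chromosome 4 was behind these with 165 peaks per 100 genes on the same count.

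**Figure D4:**
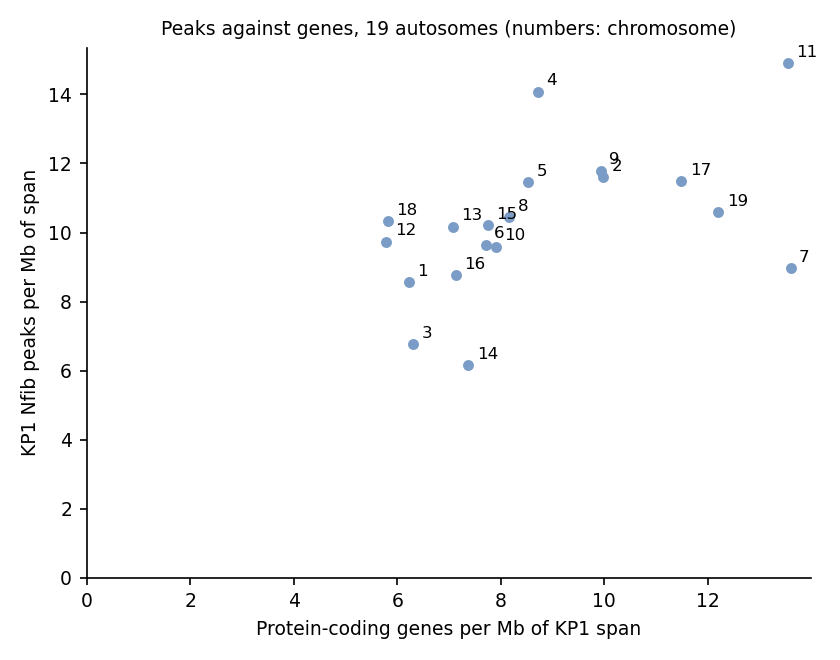
Peaks per Mb against protein-coding genes per Mb for the 19 autosomes, each point labelled with its chromosome number; genes were counted in RefSeq for GRCm38.p6. Chromosomes 7 and 11 have 13.6 and 13.5 genes per Mb but 8.98 and 14.9 peaks per Mb.

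Most peaks were narrow. The median width was 232 bases, with quartiles of 178 and 324 bases, and 95% of peaks had at most 547 bases. The list had a floor at 150 bases, the width of 2328 peaks (9.46%), whereas 191 peaks had 1 base more. The sources used here do not say which step set this floor, so the widths of the narrowest peaks may not reflect binding. At the upper end, 1676 peaks (6.81%, 6.5 to 7.13) had at least 500 bases and held 16.2% of the covered bases, and 67 peaks had at least 1000. By autosome, the median width ran from 218 bases on chromosome 14 to 247 on chromosome 4. The share of peaks of at least 500 bases was 10.9% on chromosome 4 (9.66 to 12.3) and ran from 4.41% on chromosome 19 to 8.53% on chromosome 8 among the rest. The widest peak of the list, 5805 bases on chromosome 17 from 39979954 to 39985758, had its nearest neighbour 270220 bases away, midpoint to midpoint. It was the only one of the 10 widest without a neighbour within 2 kb. Of the other 9, 5 belonged to the block at the start of chromosome 9, 3 lay on chromosome 4 and 1 lay on chromosome 8 from 19925340 to 19927110. Repeats and mappability were not analysed at any of these 10 peaks, including the one on chromosome 17, and their part in the widths was not tested.

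Peaks with close neighbours were wider than isolated ones. The median width was 255 bases (247 to 263) where the nearest midpoint lay 1 to 2 kb away, 231 (226 to 237) at 10 to 20 kb and 203 (196 to 213) beyond 300 kb. Peaks of at least 500 bases made up 11.8% (10.4 to 13.4) at 1 to 2 kb and 3.23% (2.48 to 4.13) at 100 to 300 kb. Within 1 kb the share was lower again, at 7.42% (6.61 to 8.30). Midpoints of wide peaks cannot lie very close together, and the part of this limit in the lower share was not tested. Measured from edge to edge over all distances, the nearest peak was a median of 5.78 kb from a peak of at least 500 bases and 12.8 kb from a narrower one. At the other end of the scale, peaks at the floor of 150 bases were 7.48% (6.32 to 8.78) of those with a neighbour at 1 to 2 kb and 15.5% (12.2 to 19.3) of those with none within 300 kb. Without chromosome 4 the shares of wide peaks were 10.7% at 1 to 2 kb and 3.09% at 100 to 300 kb. How many reads lay under each peak is not in the list, so the part of peak strength in this relation was not tested.

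**Figure D5:**
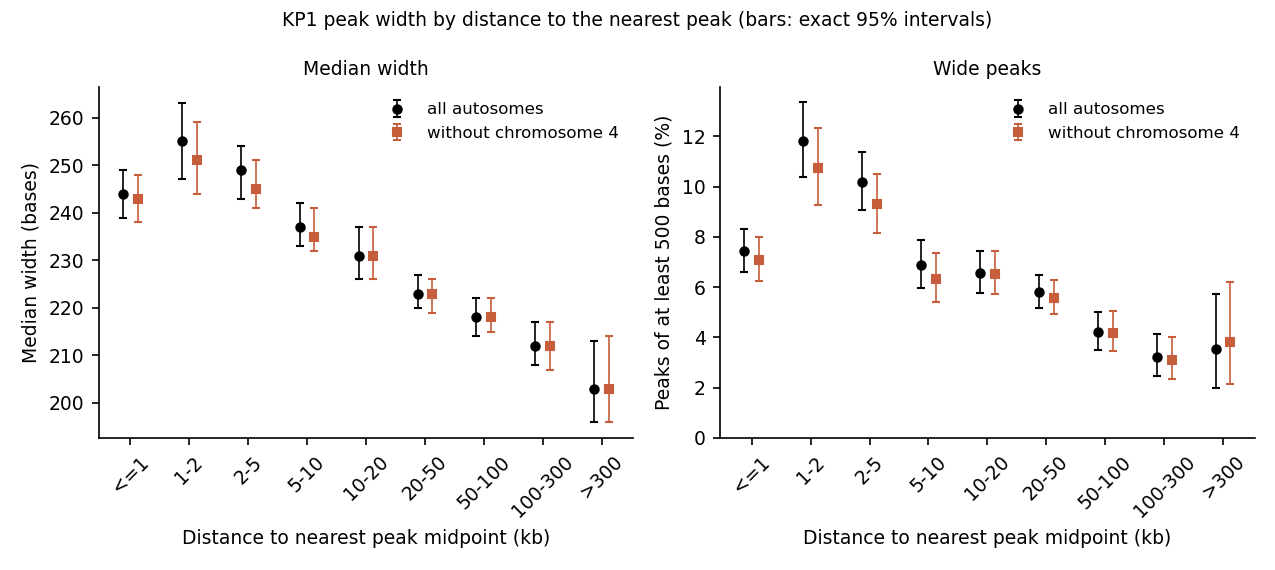
Median width in bases (left) and percentage of peaks of at least 500 bases (right) by distance to the nearest peak midpoint in kb, for all autosomes and without chromosome 4; bars are exact 95% intervals. Median width goes from 255 bases at 1 to 2 kb to 203 beyond 300 kb, and the order is similar without chromosome 4.

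Width also went with the size of the chain and the density of the surroundings. Peaks of at least 500 bases were 5.24% (4.87 to 5.63) of single peaks, 7.03% (6.39 to 7.71) of pairs, 8.63% (7.60 to 9.76) of chains of 3 and 18.1% (15.5 to 21.0) of chains of 6 or more. The last class includes the block at the start of chromosome 9, where 26 of 39 peaks were this wide. Of its 101 chains, 25 lay on chromosome 4. Its share was not computed without these chains. In windows of 1 Mb with 1 to 3 peaks, 2.99% (2.04 to 4.22) of peaks had at least 500 bases. In windows with 16 or more the share was 8.10% (7.65 to 8.57), or 7.49% (7.03 to 7.97) without chromosome 4. Close pairs were also more frequent in fuller windows, but a close neighbour adds to the count that classes its window, so this order is in part fixed by how the classes were made and is given as a description only. A neighbour within 1 kb was found for 5.01% (3.77 to 6.52) of peaks in the sparsest of these windows, 9.67% (8.70 to 10.7) in windows with 4 to 8 peaks, 13.7% (12.9 to 14.6) with 9 to 15 and 18.4% (17.7 to 19) with 16 or more. In the sparsest class the median distance to the nearest peak was 170 kb, and 9.93% (8.18 to 11.9) of peaks had a neighbour within 10 kb. About as many of these had their nearest peak within 1 kb as between 1 and 10 kb. This was so in the sparsest class only. In windows with 16 or more peaks, 56.6% (55.7 to 57.4) had a neighbour within 10 kb, against the 18.4% within 1 kb. Widths of direct neighbours were almost unrelated, with a Spearman correlation of 0.06 over all neighbouring peaks.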

How the data were processed

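Nfib chromatin immunoprecipitation and input libraries of the line KP1 were sequenced (2 of each). The submitters' processing notes name Bowtie2, MACS2, DESeq2, DESeq and mm9, without roles or versions. The peak-calling threshold, duplicate handling and whether the pulldown libraries were pooled are not given in the sources used here. A change in any of them would alter how many peaks there are, their width and their splitting. The authors deposited 1 list of intervals for KP1, numbered 1 to 24905 with 0 numbers missing. It has 0 scores. Reads per library are not in the list, so depth is unknown. The merged regions of the series carry no positions and were not used.

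Distances, chains and windows were computed with numpy 2.4.6, scipy 1.17.1 and pandas 2.3.3 under Python 3.11.15 (plots: matplotlib 3.10.9) and were tested on simulated data. Neighbour distances join midpoints on the same autosome. Windows run from the first to the last peak and are assigned by midpoint. Intervals are exact (Clopper-Pearson, Poisson or order statistics) at 95%. No test was made between groups, since there is 1 list. Regions were named as the 10 densest windows, the 10 longest chains, the 10 longest distances and the 10 widest peaks, with ties given. The peaks, regions and measures were chosen with earlier results of these data known. Alternatives were other distances, windows, width limits and sets of autosomes. Those added after seeing the data were the list without the first chain of chromosome 9, the gene comparison without chromosome 7, and gene counts without olfactory and vomeronasal receptor genes. No sequences are printed, because no genome of this build was used here.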

Additional observations from a re-analysis of the deposited data

Results flagged for a closer look

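The KP1 list also held 289 peaks outside chromosomes 1 to 19, which no comparison above uses. Of these, 253 lay on chromosome X, at 1.55 peaks per Mb, a median distance of 154 kb and a median width of 194 bases. On that chromosome 34.0% of peaks (exact 95% interval 28.2 to 40.2) had a neighbour within 10 kb. The remaining 36 peaks lay on 7 unplaced or unlocalised sequences of mm9, with 11 on that of chromosome 8. The peaks on chromosome X and on these sequences were flagged because they are in the list but were left out of the results above.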

How the results depend on the processing

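No paired analysis was possible because the KP1 list gives positions without values of single libraries, and so no replicate could be left out either. Density over reference chromosome lengths and gene density by window, of 1 or 5 Mb, were not run, since no mm9 reference was used here. Every alternative kept the variance of window counts above the mean. Without chromosome 4, density was 9.99 peaks per Mb, the median distance 35.4 kb, the share with a neighbour within 10 kb 44.4%, the share in chains of at least 3 20.1%, the variance over mean 7.81 and the share of peaks of at least 500 bases 6.41%. With peaks of at least 200 bases only, these were 6.56 peaks per Mb, 51.3 kb, 37.7%, 14.9% and 7.09 for the first 5, since fewer peaks enter. The share with a neighbour was 34.1% within 5 kb and 59.8% within 20 kb, and the share in chains 12.2% at 5 kb and 35.8% at 20 kb. The variance over mean was 2.57 in windows of 100 kb, 25.8 in windows of 5 Mb, 9.11 in windows shifted by 500 kb and 8.97 without the first chain of chromosome 9. Peaks of at least 400 bases were 14.3% and of at least 1000 bases 0.272%. These limits change the values by construction. The gene-rich over gene-poor ratio was 1.38 without chromosome 7 and 1.37 without olfactory and vomeronasal receptor genes. In the latter, chromosome 4 took the place of chromosome 2 in the gene-rich group. That group then had 12.1 peaks per Mb instead of 11.5, while the gene-poor group kept the same members and 8.85. The remaining 10 of 33 alternatives stayed within the counting error of the main value. Most of these left out only the 39 peaks of the first chain of chromosome 9, too few to move most values by much. Another was the gene-rich over gene-poor ratio without chromosome 4, which could not change because chromosome 4 was in neither group. These alternatives are therefore weak checks.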
